A study of Mus musculus with 4 samples.

Results

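Chromatin occupancy of the splice isoforms Mef2Da1 and Mef2Da2 was examined at the loci of 3 genes of their own family, Mef2d, Mef2a and Mef2c. Members were chosen by position alone, as every combined region of the deposited table and every listed peak that shared at least 1 bp with a window of the mouse build mm9 reaching about 50 kb beyond each gene. The windows were chr3:87896000-88026000 for Mef2d, chr7:74326000-74568000 for Mef2a and chr13:83593000-83857000 for Mef2c. They held 18 of the 19749 combined regions, 11 of the 8872 listed Mef2Da1 peaks and 12 of the 10105 listed Mef2Da2 peaks. Lying near a gene says nothing about whether a region regulates it.

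The proteins of the MEF2 family carry a MADS box, bind A/T-rich DNA as dimers and act with the MyoD family of factors when myoblasts become muscle. Alternative splicing of a pair of mutually exclusive exons makes the isoforms Mef2Da1 and Mef2Da2 from the Mef2d gene, the latter known as the muscle-enriched form. MEF2 factors are known to act on genes of their own family in muscle, which is the question these loci bear on.

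The cells were C2C12, a mouse myoblast line, taken after 5 days in a low-serum differentiation medium with insulin and transferrin. There were 4 groups with 1 library each. Mef2Da1 and Mef2Da2 were each precipitated from endogenous protein with an antibody raised against a peptide of that isoform. In Mef2Da1-BLOCK and Mef2Da2-BLOCK the same antibody had been blocked with peptide. All 4 groups share the cell line, the day and the fixation with formaldehyde, and the labels name no genetic change and no untreated arm. No value has a replicate error, no test of replicated conditions was possible, and no p of that kind is given.

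Signal is given as the authors' coverage height, a whole number that is not scaled to the number of reads, so heights of different libraries are comparable only as far as an unknown depth allows. Summed over the table, height was 973579 for Mef2Da1, 955997 for Mef2Da2, 377117 for Mef2Da1-BLOCK and 247315 for Mef2Da2-BLOCK. Positions within a window are given in the gene's direction, as the distance of a region's midpoint from the 5′ inner edge, which is the edge on the side of the gene's start after 50 kb is taken off. That edge lies near the start of the gene only as closely as the windows were drawn.

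The promoter of each gene is shown from RefSeq, since regions lay at or near the 5′ inner edge in all 3 windows. The sequences are of the build GRCm38.p6, not mm9, so no peak was placed on them. Capitals mark matches to the MEF2 consensus or to the E-box CANNTG, the site of MyoD-like factors. Each stretch ends just before the annotated start, except that the Mef2a stretch runs 8 bases past it to the end of a match.
Mef2a, chr7:67372851-67373108, minus strand: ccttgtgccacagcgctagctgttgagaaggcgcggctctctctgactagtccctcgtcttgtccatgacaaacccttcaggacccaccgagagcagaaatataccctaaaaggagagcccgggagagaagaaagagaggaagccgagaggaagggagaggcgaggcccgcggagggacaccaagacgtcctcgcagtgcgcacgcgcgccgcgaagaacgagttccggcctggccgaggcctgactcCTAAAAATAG
Mef2d, chr3:88142122-88142371, plus strand: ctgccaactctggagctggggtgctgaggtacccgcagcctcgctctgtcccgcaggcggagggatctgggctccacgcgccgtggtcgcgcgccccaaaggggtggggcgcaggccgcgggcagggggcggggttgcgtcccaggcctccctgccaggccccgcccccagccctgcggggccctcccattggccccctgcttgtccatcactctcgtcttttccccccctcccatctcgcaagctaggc
Mef2c, first of 3 listed starts, chr13:83503784-83504033, plus strand: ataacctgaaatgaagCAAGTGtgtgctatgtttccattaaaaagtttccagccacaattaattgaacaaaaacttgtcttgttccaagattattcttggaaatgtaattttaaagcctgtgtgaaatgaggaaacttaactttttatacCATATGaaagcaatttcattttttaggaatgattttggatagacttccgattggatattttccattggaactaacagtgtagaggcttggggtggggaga
Both motifs were searched on both strands over 250 bases before to 50 bases after the start. The Mef2a promoter held 1 match to the MEF2 consensus, CTAAAAATAG, which begins 2 bases before the annotated start. The consensus as searched is its own reverse complement, so any match to it reads as a match on either strand. Of 32851 promoters of the same length in the RefSeq table, 3.19% held the consensus. No match was found in the Mef2d promoter or at any of the 3 listed Mef2c starts. The first Mef2c promoter held the E-boxes CAAGTG and CATATG, and the third held CAGATG. The E-box occurred in 72.3% of all promoters, and it was found neither in the Mef2d nor in the Mef2a promoter. The motifs did not overlap each other. A match in letters is a description of the sequence and not a measured site.

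Mef2d, the gene that encodes both precipitated isoforms, had the most closely spaced regions. Its window of 130 kb held 9 combined regions, or 69.2 per Mb, against 8.02 per Mb over all chromosomes and 6.10 on chromosome 3. When every chromosome was cut into consecutive tiles of the same length, 207 of 18944 tiles (1.09%) held as many regions or more. The Mef2a window of 242 kb held 5 regions, or 20.7 per Mb, and 15.1% of tiles of its length held as many. The Mef2c window of 264 kb held 4 regions, or 15.2 per Mb, and 21.8% of its tiles held as many. The windows were drawn around genes, whereas the tiles and the chromosome averages took in whole chromosomes regardless of genes. These shares describe how regions are spread and are not a test.

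Listed peaks of both isoforms lay in 8 of the 18 regions, of Mef2Da1 alone in 3, of Mef2Da2 alone in 3 and of neither in 4. Over the whole table the shares were 26.6%, 15.2%, 20.1% and 38.1%. By locus, both isoforms had a listed peak in 4 of 9 regions at Mef2d, in 1 of 5 at Mef2a and in 3 of 4 at Mef2c. All 23 listed peaks of these windows lay inside combined regions. The same share was not counted over the full lists, so this is not given as a trait of these windows. The table's own −log10 p, which the authors computed per region, reached 6 or more for both isoforms in 6 of the 18 regions, against 26.5% of the table. At Mef2c, 2 regions with listed peaks of both isoforms fell short of that level in the table. Mef2Da2 had 6.48 in its list and 5.96 in the table at chr13:83642908-83643292, and Mef2Da1 had 6.20 and 5.53 at chr13:83704773-83705320.

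**Figure D1:**
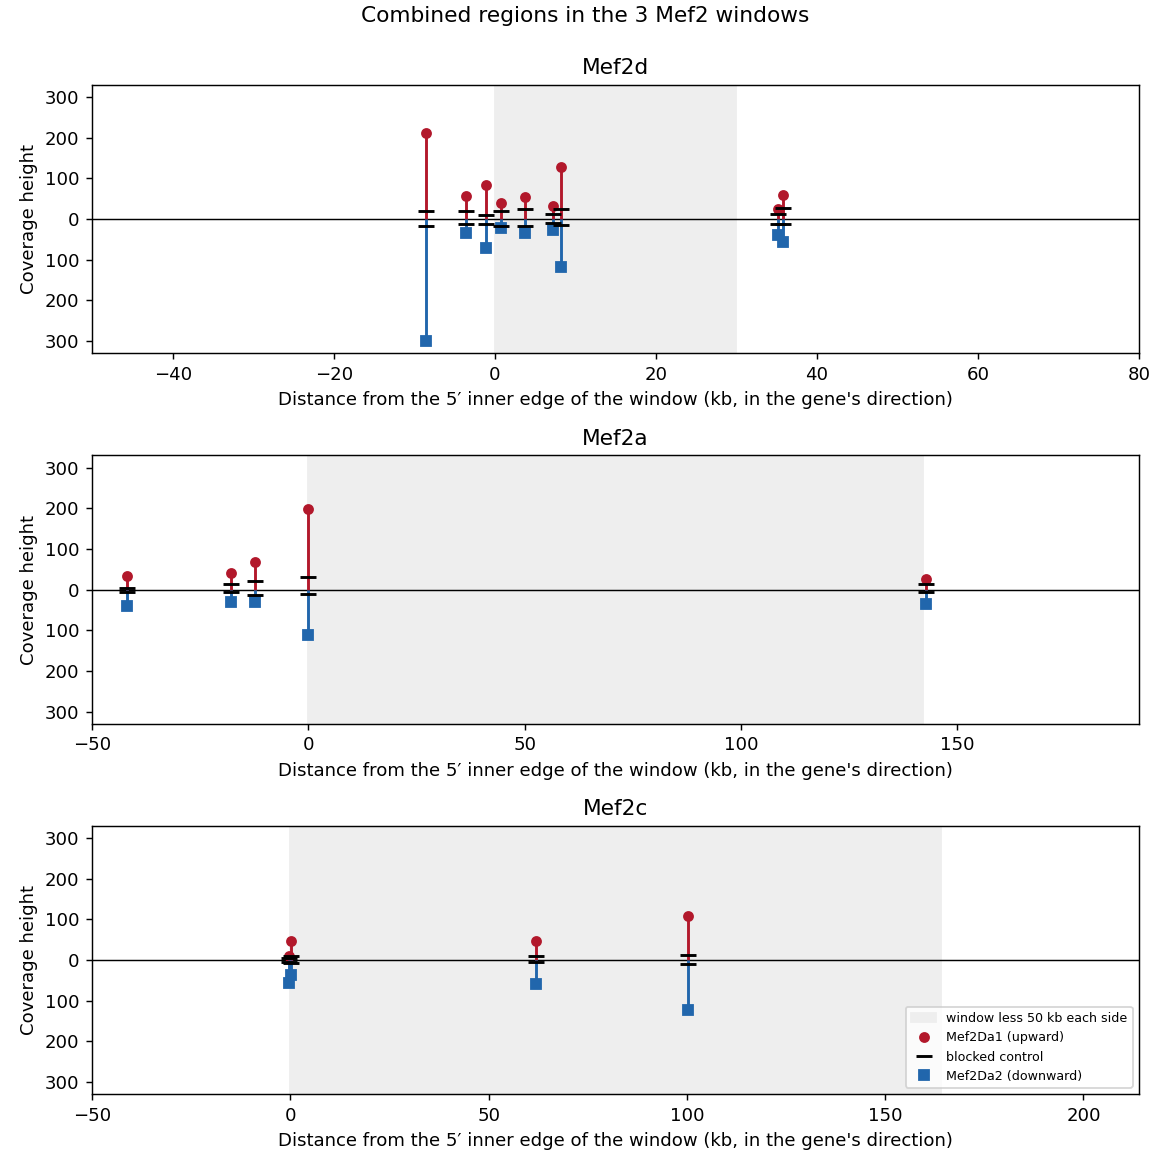
Coverage height of each combined region (vertical axis, Mef2Da1 upward and Mef2Da2 downward from 0) against its distance from the 5′ inner edge of the window in kb, for Mef2d, Mef2a and Mef2c. Black dashes are the blocked controls and grey marks the window less 50 kb on each side. The Mef2d regions gather within 10 kb of the edge with an outlying pair beyond the grey area, whereas the Mef2a maximum of 198 and 112 sits on the edge and the Mef2c maximum of 109 and 122 lies about 100 kb inside.

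The strongest Mef2d region was chr3:87936929-87938046, 8.51 kb upstream of the 5′ inner edge, on the side of the neighbouring gene Iqgap3. Mef2Da1 reached a height of 211 there, with 20 in Mef2Da1-BLOCK, and Mef2Da2 reached 300, with 18 in Mef2Da2-BLOCK. Each isoform stood above its control, by 10.1-fold and 15.8-fold unscaled (ratio of heights after adding 1). With libraries scaled to their summed height, the ratios were 4.00-fold and 4.24-fold, so the gap between the isoforms' unscaled ratios was mostly absent after scaling. Among all 19749 regions, 62 were higher for Mef2Da1 and 41 for Mef2Da2. In the authors' lists the peak ranked 45 of 8872 for Mef2Da1, with a −log10 p of 39.96, and 51 of 10105 for Mef2Da2, with 52.96. This was the highest region of all 18 for both isoforms.

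Next in height was chr3:87953522-87954882, 8.20 kb inside the 5′ inner edge. Mef2Da1 stood at 127 over a control of 24, and Mef2Da2 at 117 over a control of 15. In what follows, heights are given in the order Mef2Da1 and Mef2Da2, then Mef2Da1-BLOCK and Mef2Da2-BLOCK. Where a sentence names Mef2Da2 first, its control also comes first. The isoforms were nearly level there, and each exceeded its control, by 5.12-fold and 7.38-fold unscaled and by 2.03-fold and 1.99-fold scaled to total height. The third was chr3:87944444-87945267, 1.14 kb upstream of the edge, with 83 and 72 against 11 and 12. It exceeded the controls by 7.00-fold and 5.62-fold unscaled, and by 2.83-fold and 1.53-fold scaled to total height. The fourth region with listed peaks of both isoforms, chr3:87981386-87982324, lay 5.86 kb beyond the 3′ inner edge and had 60 and 57 against 27 and 11. Unscaled, the ratios to the controls were 2.18-fold and 4.83-fold. Scaled to total height, Mef2Da1 was below its control there, at 0.86-fold, and Mef2Da2 above its own, at 1.33-fold.

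A separate feature of the Mef2d window was what lay between these maxima. The region chr3:87945836-87947620, with its midpoint 0.73 kb inside, spans the 5′ inner edge itself and was the widest of the 18, at 1785 bp. It had no listed peak, with 39 and 23 against 20 and 16, so that neither isoform reached 2-fold over its control (1.91-fold and 1.41-fold). The regions next to it on either side were higher for both isoforms. The other Mef2d region without a listed peak, chr3:87952971-87953471, had 31 and 27 against 12 and 9 and ended 50 bp before the region 8.20 kb inside the edge.

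Mef2Da1 alone had a listed peak at chr3:87942130-87942604, 3.63 kb upstream of the edge, and at chr3:87949246-87950377, 3.81 kb inside it. Heights at the first were 56 for Mef2Da1 and 34 for Mef2Da2, against 19 and 12. At the second they were 54 and 33 against 24 and 16. Scaled to total height, Mef2Da1 stood at 1.14-fold its control in the first and 0.87-fold in the second. Mef2Da2 stood at 0.74-fold and 0.55-fold. In both regions Mef2Da2 lacked a listed peak, but the table gave it a −log10 p of 5.06 and 4.88, under the lowest listed value of 6.01. Mef2Da2 alone had a listed peak at chr3:87981006-87981320, 5.16 kb beyond the 3′ inner edge, with 39 for Mef2Da2 and 24 for Mef2Da1 against 12 and 13. That peak was weak, with a −log10 p of 6.37 and a rank of 9152 of 10105. Its region ended shortly before chr3:87981386-87982324, which held listed peaks of both isoforms.

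**Figure D2:**
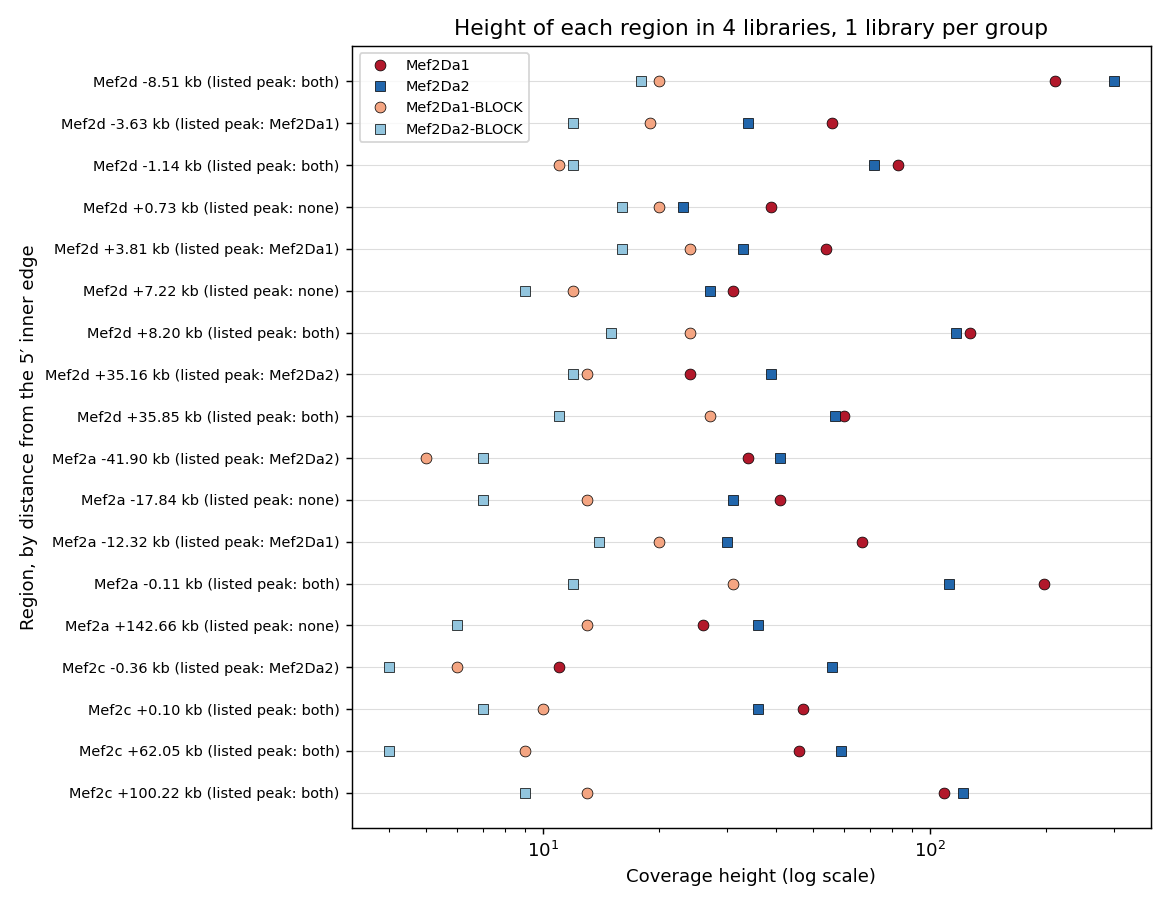
Coverage height (log scale) of each of the 18 regions in the 4 libraries, 1 point per library, with regions ordered by locus and by distance from the 5′ inner edge. In every region both isoforms lie to the right of both blocked controls. They come nearest at Mef2d 0.73 kb inside the edge, with Mef2Da2 at 23 and Mef2Da1-BLOCK at 20.

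At Mef2a, which encodes a family member that is also active in muscle, signal was concentrated in 1 region on the 5′ inner edge. The region chr7:74517493-74518718 had a Mef2Da1 height of 198, with 31 in its control, and a Mef2Da2 height of 112, with 12 in its control. Mef2Da1 was the higher isoform here under each scaling tried, and each was above its control, by 6.22-fold and 8.69-fold unscaled and by 2.45-fold and 2.37-fold scaled to total height. Only 81 regions of the table were higher for Mef2Da1, whereas 1123 were higher for Mef2Da2. The Mef2Da1-BLOCK height of 31 was the highest of that control among the 18 regions, and 6.06% of the table was as high. This is the gene whose RefSeq promoter held the MEF2 consensus match shown above. No peak was placed on that sequence, and a link between the match and the region was not tested.

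The lists described that region unlike for each isoform. Mef2Da1 had a single peak of 1162 bp, chr7:74517493-74518654, with a −log10 p of 34.4. Mef2Da2 had a pair of peaks, chr7:74517577-74517938 with a height of 112 and chr7:74518048-74518706 with a height of 105, both overlapping the Mef2Da1 peak. Their −log10 p values were 19.5 and 18.2. Their widths were 362 and 659 bp. No other region of the 18 held more than 1 listed peak of an isoform.

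Further upstream of Mef2a the regions were modest. At chr7:74529893-74530741, 12.3 kb upstream of the edge, Mef2Da1 had a listed peak with a height of 67 and Mef2Da2 had 30 without one, against 20 and 14. At chr7:74535653-74536029, 17.8 kb upstream, heights were 41 and 31 against 13 and 7, with no listed peak. At chr7:74559690-74560104, 41.9 kb upstream, Mef2Da2 had a listed peak with a height of 41 and Mef2Da1 had 34, against 7 and 5. No region lay between the 5′ edge and chr7:74375114-74375562, a stretch of 141.9 kb. That last region, 0.66 kb beyond the 3′ inner edge on the side of the neighbouring gene Lysmd4, had 26 and 36 against 13 and 6 and no listed peak.

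Mef2c, which encodes a family member needed in heart and skeletal muscle development, had 4 regions, each with a listed Mef2Da2 peak. Over the whole table, 26.6% of regions held listed peaks of both isoforms and a further 20.1% of Mef2Da2 alone. The strongest Mef2c region, chr13:83742976-83743466, lay 100.2 kb inside the 5′ inner edge. Mef2Da1 reached 109 there over a control of 13, and Mef2Da2 reached 122 over a control of 9. The isoforms were nearly level and stood 7.86-fold and 12.3-fold above their controls unscaled, and 3.15-fold and 3.40-fold scaled to total height. In the lists the peak ranked 658 of 8872 for Mef2Da1 and 695 of 10105 for Mef2Da2. At chr13:83704773-83705320, 62.05 kb inside, heights were 46 and 59 against 9 and 4, and the Mef2Da1 peak was near the lists' limit with a −log10 p of 6.20.

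A pair of Mef2c regions 105 bp apart lay at the 5′ inner edge and differed in the balance of the isoforms. At chr13:83642485-83642802, 0.36 kb upstream, Mef2Da2 had a height of 56 and Mef2Da1 of 11, against 4 and 6. At chr13:83642908-83643292, 0.10 kb inside, Mef2Da2 had 36 and Mef2Da1 had 47, against 7 and 10. So Mef2Da2 was far above Mef2Da1 in the first and somewhat below it in the second. In the first region Mef2Da1 was lower than in 19735 of the 19749 regions of the table and had a −log10 p of 1.04. With heights scaled to each library's total, Mef2Da2 was 4.83-fold above Mef2Da1 there, a log2 ratio of −2.27, and 59 regions of the table lay further in that direction. Only Mef2Da2 had a listed peak in this first region, so the ratio is not independent of that listing. It also rests on a Mef2Da1 height of 11, near the table's lowest of 8. In the second region the log2 ratio was 0.35, and it turned to −0.22 when scaled to the totals of the blocked controls.

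**Figure D3:**
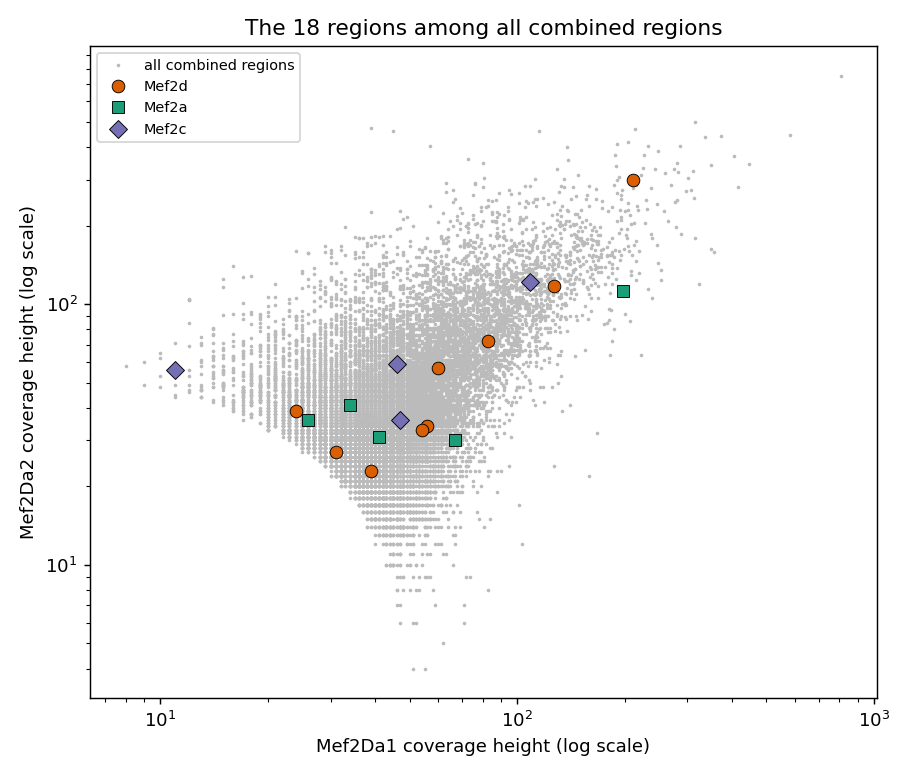
Coverage height of Mef2Da2 against Mef2Da1 (both axes on a log scale) for all 19749 combined regions in grey and the 18 regions of the Mef2d, Mef2a and Mef2c windows in colour. The Mef2d region at 211 and 300 lies at the upper end of the cloud, and the Mef2c region at 11 and 56 at its left edge.

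The 18 regions had a median Mef2Da1 height of 50.5 (43.0 over the table) and a median Mef2Da2 height of 40.0 (37.0 over the table). The median was 13.0 in Mef2Da1-BLOCK (19.0 over the table) and 11.5 in Mef2Da2-BLOCK (12.0 over the table). Before scaling, both isoforms were higher than both blocked controls in all 18 regions, as in 86.8% of the table. Heights of at least 100 were found in 4 of the 18 regions for each isoform, the same 4 for both, against 4.17% of the table for Mef2Da1 and 7.56% for Mef2Da2. These were the regions of Mef2d 8.51 kb upstream and 8.20 kb inside, of Mef2a at the edge and of Mef2c 100.2 kb inside. No region reached a score of 6 in a blocked control, against 34 regions of the table (0.172%) for Mef2Da1-BLOCK and 0 for Mef2Da2-BLOCK. Across the 18 regions, Spearman's rho was 0.569 between the isoforms' heights, 0.585 between Mef2Da1 and its blocked control and 0.006 between Mef2Da2 and its own. The points share libraries and come from regions selected for signal, so these are descriptions.

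Without scaling, Mef2Da1 was at least 2-fold above its blocked control in 14 of the 18 regions, against 64.7% of the table. Mef2Da2 was so in 17, against 75.0% of the table, and 1 of these, the Mef2d region 3.81 kb inside the edge, stood at exactly 2.00-fold. The exception was the region on the Mef2d edge. The counts fell to 6 for Mef2Da1 and 5 for Mef2Da2 when each library was scaled to its total height over the table, against 7.98% and 15.8% of the table. For Mef2Da1 the 6 were the Mef2d regions 8.51 and 1.14 kb upstream and 8.20 kb inside, the Mef2a regions at the edge and 41.9 kb upstream, and the Mef2c region 100.2 kb inside. For Mef2Da2 they were the Mef2d region 8.51 kb upstream, the Mef2a region at the edge, and the Mef2c regions 0.36 kb upstream, 62.05 kb inside and 100.2 kb inside. With the median ratio as the scale, 7 and 6 regions were left, against 10.1% and 20.8% of the table. Either scaling takes out the general excess of an isoform over its control, whereas the unscaled ratio carries the unknown depth.

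Scaled to total height, the isoforms were within 2-fold of each other in all but 2 of the 18 regions. Mef2Da1 was over 2-fold higher at the Mef2a region 12.3 kb upstream, by 2.16-fold, against 9.62% of the table. Mef2Da2 was over 2-fold higher at the Mef2c region 0.36 kb upstream, against 7.03% of the table. The median log2 ratio of Mef2Da1 to Mef2Da2 was 0.13 over the 18 regions and 0.17 over the table. It was 0.17 at Mef2d, 0.37 at Mef2a and −0.28 at Mef2c. Scaled to the totals of the blocked controls, which moved the table's median to −0.40, these were −0.40, −0.20 and −0.86, so the sign at Mef2d and Mef2a changed with the scaling. The Mef2a region fell below 2-fold when scaled to the median ratio (log2 ratio 0.94) or to the totals of the blocked controls (0.54), where 6.30% and 1.71% of the table were over 2-fold toward Mef2Da1. The Mef2c region stayed past 2-fold in that direction, at −2.44 and −2.83. Scaled to blocked totals, 4 of the 18 regions were over 2-fold toward Mef2Da2, against 20.2% of the table, a share near that of the members. The 3 further ones were the Mef2d regions 8.51 kb upstream (−1.11) and 5.16 kb beyond the 3′ inner edge (−1.27), and the Mef2a region beyond the 3′ inner edge (−1.04).

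**Figure D4:**
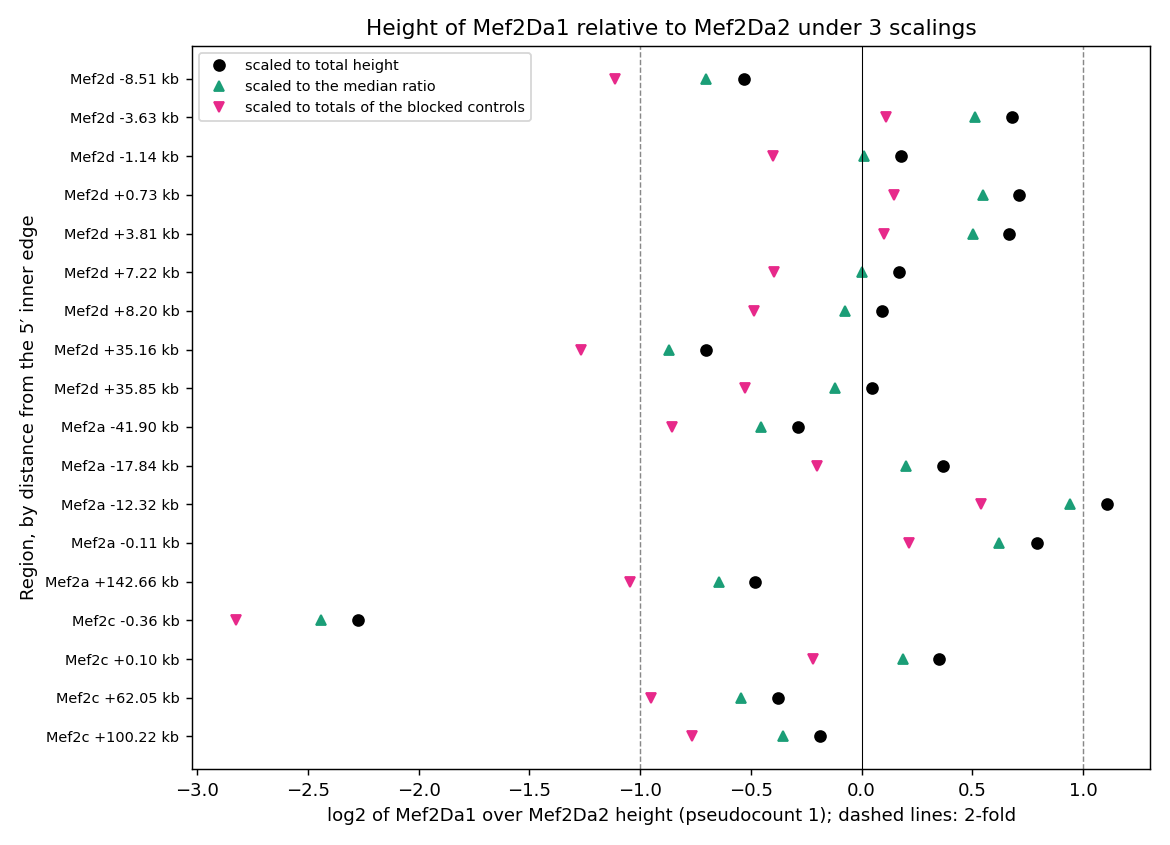
Log2 ratio of Mef2Da1 to Mef2Da2 height (horizontal axis, pseudocount 1) for each of the 18 regions under 3 scalings, with dashed lines at 2-fold. The Mef2c region 0.36 kb upstream lies between −2.27 and −2.83, apart from the others, and the Mef2a region 12.3 kb upstream passes 2-fold toward Mef2Da1 in 1 of these 3 scalings, that to total height.

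Where listed peaks of the isoforms overlapped, none of the 9 pairs coincided in extent. At Mef2d 8.51 kb upstream the Mef2Da2 peak of 625 bp lay wholly within the Mef2Da1 peak of 885 bp, with midpoints 126 bp apart. In the other Mef2d pairs the midpoints were 71, 74 and 146 bp apart. At Mef2c the midpoints were 15.5 bp apart at the edge, 27.5 bp apart 100.2 kb inside and 100.0 bp apart 62.05 kb inside. In the Mef2a region they were 316 and 303.5 bp apart, since 1 Mef2Da1 peak overlapped both Mef2Da2 peaks. The peak of Mef2Da1 was wider than that of Mef2Da2 in all 9 overlapping pairs, of which 2 share the Mef2a peak of Mef2Da1. It was so in 73.4% of the 5527 overlapping pairs of both lists, so most pairs elsewhere had the same order.

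The windows' limits left out other regions, of which the nearest on each side are given. Listed peaks of both isoforms lay in the region below Mef2a and in those on either side of Mef2c. The region below Mef2d had a listed peak of Mef2Da1 alone, and those above Mef2d and Mef2a had none. The nearest one outside the Mef2d window, 33.4 kb below it, had 44 and 11 against 28 and 14, and the nearest above, at 74.6 kb, had 55 and 27 against 36 and 20. For Mef2a the nearest lay 68.2 kb below, with 52 and 43 against 20 and 14, and 36.5 kb above, with 40 and 27 against 15 and 11. For Mef2c they lay 246 kb below, with 62 and 69 against 14 and 7, and 895.6 kb above, with 70 and 37 against 25 and 11. The Mef2c regions thus stood in a wide stretch without any other combined region.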

How the data were processed

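The authors' deposited files hold 1 ChIP-seq library of C2C12 cells at day 5 for each of 4 groups. Alignment with BWA 0.5.9 and the build mm9 come from the submitters' processing notes. What called the peaks, how many reads each library had and how the combined regions were set is not given in the sources used here.

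The deposited signal is a whole-number coverage height, not scaled. The deposited files also give the authors' −log10 p of each peak and region. In the blocked controls' columns of the deposited table it was used as a score, since 1 and 9 values lay below 0. Columns were assigned through the names of each sample's peak list. For Mef2Da1, 8252 of 8253 regions with a listed peak had the height of the highest such peak, and for Mef2Da2 9215 of 9215 did. Table starts were read as 0-based, like those of the lists, since 40 and 16 peaks began exactly at a region's start. Coordinates are printed 1-based.

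A region or peak belonged to a window, and a peak to a region, with 1 shared bp. Ratios used a pseudocount of 1. All regions in the windows are named. The members, lists and comparisons were chosen with earlier results of these data known. Overlap and scaling code was tested on simulated regions. With 1 library per group no test between groups was run, and with depth unknown no interval is given.

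All 3 genes matched the RefSeq promoter table of GRCm38.p6 by symbol, and neighbouring genes were read from the order of that assembly's genes. No mm9 annotation was used here, so regions were not assigned to exons or introns, and a planned list of other MEF2 pathway genes was not run. Protein sequences were not used here. Python 3.11.15 was used with pandas 2.3.3, NumPy 2.4.6, SciPy 1.17.1 and, for figures, Matplotlib 3.10.9.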

Additional observations from a re-analysis of the deposited data

How the results depend on the processing

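Of 65 alternative counts, 44 stayed within 1.5 times the reported count and 21 moved. Trimming each window by 50 kb per side left 4 regions at Mef2d and 1 at Mef2a. It left 2 Mef2Da1 and 1 Mef2Da2 listed peaks at Mef2d, and 1 of each at Mef2a. By class it left 5 regions with peaks of both isoforms, 1 with Mef2Da1 only, 0 with Mef2Da2 only and 2 with neither. These counts fall by construction, and the Mef2d region of 211 and 300 then lies outside. Extending each window by 50 kb per side gave 5 regions with a Mef2Da1 peak only. Keeping listed peaks with a −log10 p of 10 or more left 3 Mef2Da1 and 3 Mef2Da2 peaks at Mef2d and 1 Mef2Da1 peak at Mef2c. Most peaks of both full lists also lie under 10. A Mef2Da1 peak with 8.82 ranked 3594 of 8872, and a Mef2Da2 peak with 9.80 ranked 4515 of 10105. A 2-fold excess over the blocked control was left in 6 regions for Mef2Da1 and 5 for Mef2Da2 scaled to total height, and in 7 and 6 scaled to the median ratio. Mef2Da1 was over 2-fold above Mef2Da2 in 0 regions scaled to the median ratio and in 0 scaled to the totals of the blocked controls, where Mef2Da2 was higher in 4, against 20.2% of the table. Which scaling is right was not tested. Assigning by midpoint, requiring 50% of a peak in the region, a pseudocount of 5 and a summed height of 20 left the counts they were applied to within 1.5 times. No paired analysis was possible because each group has 1 library, and none could be left out. Unknown depth limits every comparison of heights between libraries.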
